A study of Mus musculus with 23 samples.

Results

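Messenger RNA of 7 genes known to be induced by glucocorticoids was followed in mouse nucleus accumbens 1 hour after methamphetamine (MA) or saline (SAL). The genes are Sgk1, Txnip, Cebpd, Ddit4, Cdkn1a, Fkbp5 and Tsc22d3, and every probe set that the platform annotation maps to them was taken, which gave 9 of 12488 probe sets and 7 of 8251 genes. The genes were chosen by earlier results on these arrays, with their differences between methamphetamine and saline known, so those differences are described without a test. The differences between the lines and the covariation within groups were not themselves used in the choice, and were tested. Whether the MA difference is the same in both lines is computed from those known differences, so that test is not independent of the choice. High MA arrays raise the MA differences and also enter the covariation, which is therefore not fully free of the choice.

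Methamphetamine is a psychostimulant that releases dopamine, and the mice had been bred for a high (HMACT line) or a low (LMACT line) acute response to it, starting from crosses of C57BL/6J x DBA/2J. All mice received a challenge injection, either 2 mg/kg MA or saline, and the tissue was taken 1 hour later. Each array measured a 4-way tissue pool. There were 6 pools of HMACT after MA with mean ages of 77.25 to 150 days, 6 of HMACT after SAL (77.25 to 154 days), 5 of LMACT after MA (60 to 114.75 days) and 6 of LMACT after SAL (61.5 to 127.5 days). The labels name 1 line for each direction of selection, so the values describe these lines. They do not say how animals were shared among pools, and p-values therefore measure the spread between these pools.

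Glucocorticoids enter cells and bind the glucocorticoid receptor, encoded by Nr3c1, which then moves to the nucleus and acts on genes that carry a glucocorticoid response element. In rodents psychostimulants release corticosterone, and the transcripts followed here are among those that respond to the hormone in brain. Several of them also answer to other signals: Txnip to glucose, Ddit4 to stress and energy depletion, Cebpd to inflammatory cytokines and Cdkn1a to p53.

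The promoters of Sgk1, Txnip and Cdkn1a are printed because each holds letters that match a motif tied to a signal named above. The Txnip window holds both a glucocorticoid and a carbohydrate motif, so such matches do not tell the signals apart. The sequences are those of RefSeq on GRCm38.p6, the 250 bases before an annotated transcript start, 5′ to 3′ on the plus strand, on which all 3 genes lie. Capitals mark the motif matches. The Sgk1 sequence is chr10:21993640-21993889, the Txnip sequence is chr3:96557707-96557956 and the Cdkn1a sequence is chr17:29090729-29090978.
Sgk1: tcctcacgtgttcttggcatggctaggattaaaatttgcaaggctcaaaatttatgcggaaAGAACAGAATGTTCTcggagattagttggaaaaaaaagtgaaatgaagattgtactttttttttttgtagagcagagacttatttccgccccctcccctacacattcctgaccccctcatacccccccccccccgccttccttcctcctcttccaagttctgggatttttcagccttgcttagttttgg
Txnip: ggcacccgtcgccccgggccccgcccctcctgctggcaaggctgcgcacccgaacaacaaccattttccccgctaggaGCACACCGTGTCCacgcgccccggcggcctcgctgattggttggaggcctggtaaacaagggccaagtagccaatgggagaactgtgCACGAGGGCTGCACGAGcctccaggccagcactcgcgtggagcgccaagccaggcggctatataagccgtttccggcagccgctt
Cdkn1a: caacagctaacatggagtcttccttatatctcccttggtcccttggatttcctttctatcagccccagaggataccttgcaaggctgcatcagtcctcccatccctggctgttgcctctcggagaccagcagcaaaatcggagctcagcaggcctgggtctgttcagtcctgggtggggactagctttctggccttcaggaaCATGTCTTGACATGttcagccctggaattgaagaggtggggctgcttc

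The Sgk1 capitals are the letters AGAACA, any 3 bases and TGTTCT, the palindrome of a full glucocorticoid response element, at bases -189 to -175 from that start. This window belongs to 1 of 6 annotated Sgk1 starts, and the element lies 951 bases before the next start downstream. Of 32851 promoter windows of the same length, searched on both strands, 3 hold the palindrome (0.00913%). The first capitals of Txnip are the looser core of the same element, GNACA, any 3 bases and TGTNC, at -172 to -160, which 0.387% of windows hold, and which also lies inside the Sgk1 palindrome. The second are the paired half-sites of a carbohydrate response element, CACGNG, any 5 bases and CNCGNG, at -85 to -69, held by 0.280% of windows. The Cdkn1a capitals are CATG, any 6 bases and CATG, the paired core of a p53 site, at -48 to -35, held by 0.490% of windows. RefSeq windows were matched for 6 of the 7 genes, and the windows of Ddit4, Fkbp5 and Tsc22d3 held none of these 4 motifs. A match describes letters and does not show that a factor was bound in these pools.

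Values are the deposited log2 levels, and the lowest value, 2.23, recurs as a floor. A level under 2.3 was counted as at the floor. Some probe sets repeat a background value of their own above that limit: of the 5308 genes over it on at least 12 arrays, 612 (11.5%) had 1 value, equal to 6 decimals, on 12 or more arrays. None of the probe sets used below for the 6 measured genes had a value on more than 2 arrays. On 4 arrays the whole profile stood apart from the other 19: HMACT MA 3, HMACT SAL 3, HMACT SAL 5 and LMACT MA 4 scored 41.8 to 65.0 on the axis that held 62.1% of the variance within groups, against -22.8 to 23.8. LMACT MA 5 had the largest difference between the 3′ and 5′ probe sets of the control transcripts, 3.22 log2 units, where the other arrays had 1.19 to 2.53, and LMACT MA 4 was the single array of its chip lot. The marker check of the tissue found 4 of 5 striatal projection neuron markers on the array above the floor, with a mean level of 8.77 to 10.2. Rgs9, the fifth, was at the floor on every array. Precision is limited by how many arrays each group has.

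Of the 7 genes, 6 were above the floor on at least 12 arrays, as were 64.3% of all genes. Shares of all genes given below are over 8251 genes, and 2089 of these were at the floor on every array. Tsc22d3, which encodes the anti-inflammatory leucine zipper protein GILZ, was at the floor on all 23 arrays and gave no comparison. The second Txnip probe set, 160548_at, was above the floor only on HMACT MA 4, at 2.31, and the Txnip values below are those of 160547_s_at. Nr3c1 itself was also at the floor on every array, and Nr3c2, the mineralocorticoid receptor gene, was not among the annotated genes used here. A value at the floor gives only an upper bound on the signal of these probe sets.

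Sgk1 encodes a serum- and glucocorticoid-regulated kinase that acts on ion channels and transporters, and its levels were lower in HMACT than in LMACT, a difference that missed the threshold in the mean of both injections. The HMACT MA arrays had a lowest Sgk1 level of 9.60, a median of 9.78 and a highest of 10.3, and the HMACT SAL arrays 9.01, 9.38 and 9.71. In LMACT MA the 5 arrays, replicates 2 to 6, had 10.1, 10.3, 10.3, 9.45 and 10.3, and the LMACT SAL arrays had a lowest of 9.89, a median of 10.1 and a highest of 10.3. After saline every HMACT array lay below every LMACT array. Of all genes, 1.89% had line groups that do not overlap after saline, and 1.51% had them with HMACT lower. After MA the line groups overlapped, and LMACT MA 5 lay below all 6 HMACT MA arrays; 0.521% of all genes had line groups that do not overlap there.

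The mean line difference of Sgk1 was -0.50 log2 units (SE 0.106, 95% interval -0.73 to -0.28), or 1.42-fold lower in HMACT. Its p-value before adjustment was 1.4e-04 in limma, and its Benjamini-Hochberg adjusted p over 8251 genes was 0.0565, so it did not pass the threshold of 0.05. Across 38 alternatives the adjusted p ran from 0.00108 to 0.547 and passed in 9, and the difference stayed negative in all of them, between -0.58 and -0.42. Leaving out 1 array passed the test for HMACT MA 2 (adjusted p = 0.0264), HMACT SAL 2 (0.0414), LMACT MA 4 (0.0498) and LMACT MA 5 (0.00541). In limma the difference was -0.73 after saline (SE 0.147, adjusted p = 0.136) and -0.28 after MA (SE 0.154, adjusted p = 1). Without LMACT MA 5 these were -0.73 (adjusted p = 0.0282) and -0.44 (adjusted p = 0.480). Over 39 alternatives the adjusted p ran from 0.0244 to 0.745 after saline and from 0.0280 to 1 after MA.

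The HMACT pools were older than the LMACT pools. With mean age as a covariate the Sgk1 line difference was -0.55 (limma adjusted p = 0.229). In pools under 100 days alone it was -0.54 (adjusted p = 0.547), and in the chip lot of 15 arrays, which holds all groups, it was -0.42 (adjusted p = 0.252). Oligodendrocytes are also known to express Sgk1. All 6 oligodendrocyte markers above the floor of 8 listed had a negative line difference in the mean of both injections, with a median of -0.32. Of all genes above the floor, 50.9% had a positive one. The mean level of the markers and Sgk1 were both highest in their group on HMACT MA 2 and LMACT MA 4. They were highest on different arrays in HMACT SAL and LMACT SAL. Both were lowest in their group on HMACT MA 5, HMACT SAL 1 and LMACT MA 5, but on different LMACT SAL arrays. By injection, all 6 markers were negative after MA with a median of -0.55, where Sgk1 had -0.28. Line differences of all genes above the floor were positive for 42.7% after MA and 54.5% after saline. After saline 3 markers were negative and 3 positive with a median of -0.23, where Sgk1 had -0.73. Their mean level was 7.51 to 8.83 in HMACT MA, 8.32 to 8.86 in HMACT SAL, 8.33 to 9.28 in LMACT MA and 8.37 to 9.02 in LMACT SAL, and Cnp was at the floor on all arrays. Their part in the Sgk1 difference was not tested, and in tissue pools fewer cells of a type and less RNA per cell cannot be told apart.

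**Figure D1:**
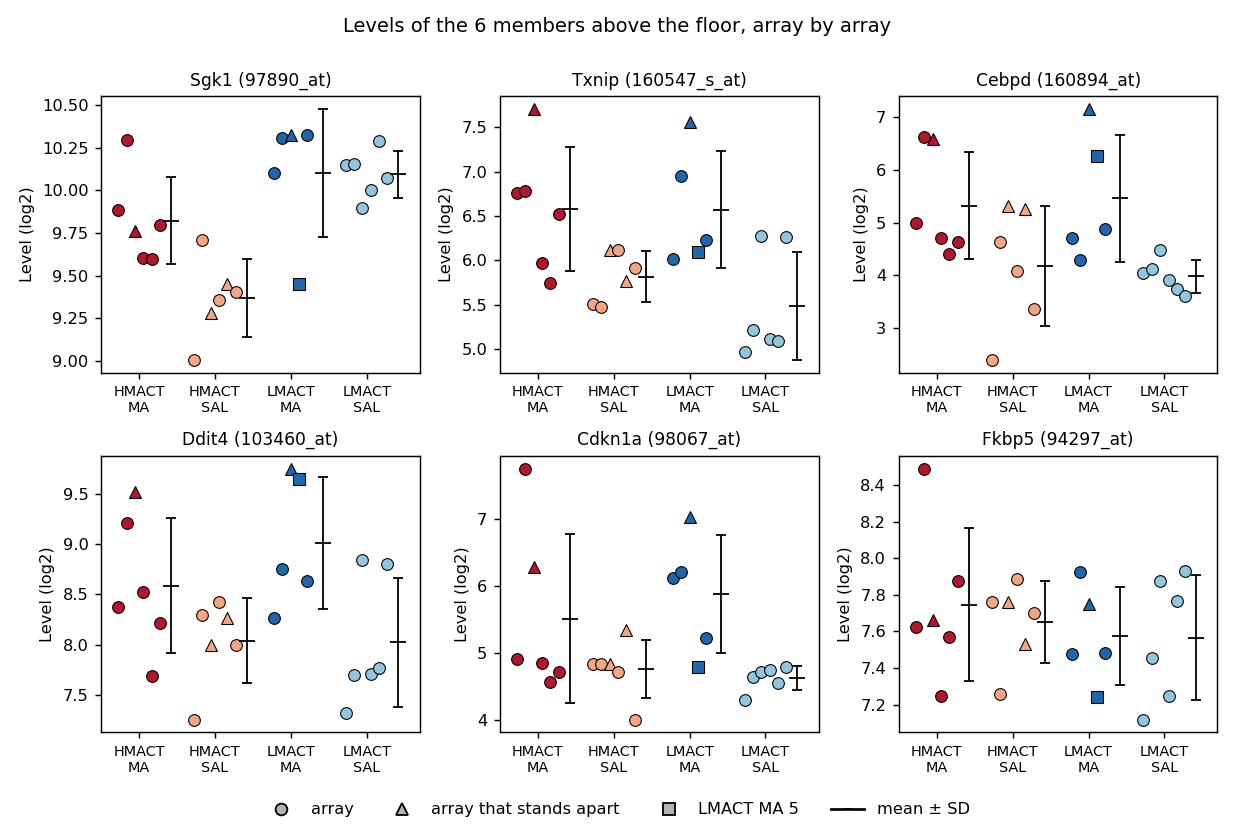
Log2 level of the 6 genes above the floor on each of the 23 arrays, with HMACT MA, HMACT SAL, LMACT MA and LMACT SAL from left to right and the mean and SD of each group beside its points; the vertical scales differ between panels and do not start at 0. Triangles are the 4 arrays that stand apart and the square is LMACT MA 5. Sgk1 shows HMACT SAL entirely below LMACT SAL. In both lines Sgk1, Txnip, Cebpd, Ddit4 and Cdkn1a show MA arrays above all saline arrays of their line.

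Cebpd encodes the transcription factor C/EBP delta and had the largest mean difference between MA and saline among the 6 genes. Its levels in HMACT MA had a lowest of 4.40, a median of 4.85 and a highest of 6.62, against 2.40, 4.36 and 5.31 in HMACT SAL. In LMACT MA the 5 arrays had 4.72, 4.30, 7.15, 6.25 and 4.87, and the LMACT SAL arrays had 3.61, 3.97 and 4.48 as lowest, median and highest. In LMACT 4 of 5 MA arrays were above every saline array, and in HMACT 2 of 6 were. The mean difference was 1.31 log2 units (SE 0.400), or 2.48-fold higher after MA, with 1.14 in HMACT (SE 0.553) and 1.47 in LMACT (SE 0.580). With array weights, which count arrays far from the fit for less, the mean was 0.69.

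Cdkn1a encodes the cell cycle inhibitor p21. Its levels in HMACT MA had a lowest of 4.57, a median of 4.88 and a highest of 7.75, against 4.01, 4.83 and 5.34 in HMACT SAL. In LMACT MA they were 6.12, 6.20, 7.03, 4.78 and 5.23, against a lowest of 4.30, a median of 4.68 and a highest of 4.79 in LMACT SAL. The HMACT difference rested on few pools: HMACT MA 2 (7.75) and HMACT MA 3 (6.29) were above all HMACT SAL arrays, and the other 4 lay within the saline range. In LMACT 4 of 5 MA arrays were above all saline arrays, and the fifth, LMACT MA 5, lay just below the highest one. The differences were 0.75 in HMACT (SE 0.456) and 1.25 in LMACT (SE 0.478), with a mean of 1.00 (SE 0.330), and without HMACT MA 2 the HMACT difference was 0.31.

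Cdkn1a has a second probe set, 94881_at, which was dimmer and had the same value, 3.33, on 8 of 23 arrays. Its level was 3.75 ± 0.847 in HMACT MA and 3.27 ± 0.164 in HMACT SAL (SD, n = 6 each), and 3.54 ± 0.363 in LMACT MA (n = 5) against 3.21 ± 0.142 in LMACT SAL (n = 6). Both probe sets were highest on HMACT MA 2, and the values of 94881_at near 3.33 are not read as levels.

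Txnip encodes a thioredoxin-interacting protein that limits glucose uptake. It had 5.74, 6.64 and 7.71 as lowest, median and highest level in HMACT MA, against 5.47, 5.84 and 6.12 in HMACT SAL. The LMACT MA arrays had 6.02, 6.96, 7.56, 6.10 and 6.23, and the LMACT SAL arrays had 4.96, 5.16 and 6.27. In HMACT 4 of 6 MA arrays, and in LMACT 2 of 5, were above every saline array of the line. The difference was 0.76 in HMACT (SE 0.333) and 1.09 in LMACT (SE 0.349), with a mean of 0.93 (SE 0.241), or 1.90-fold higher after MA. Averaged with the second probe set, which is at the floor, the mean was 0.47.

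Ddit4 encodes REDD1, an inhibitor of mTOR signalling. It had 7.69, 8.44 and 9.52 as lowest, median and highest level in HMACT MA, against 7.26, 8.13 and 8.42 in HMACT SAL. The LMACT MA arrays had 8.27, 8.75, 9.75, 9.64 and 8.63, against 7.33, 7.74 and 8.84 in LMACT SAL. LMACT MA 4 and 5 and HMACT MA 2, 3 and 4 were above all saline arrays of their line. The differences were 0.55 in HMACT (SE 0.344) and 0.99 in LMACT (SE 0.361), with a mean of 0.77 (SE 0.249). With array weights the mean was 0.37, and without HMACT MA 3 the HMACT difference was 0.36.

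Fkbp5 encodes a co-chaperone that lowers the hormone affinity of the glucocorticoid receptor and is a widely used marker of its activity. Its level was 7.75 ± 0.418 in HMACT MA and 7.65 ± 0.223 in HMACT SAL (SD, n = 6 each), and 7.58 ± 0.267 in LMACT MA (n = 5) against 7.56 ± 0.341 in LMACT SAL (n = 6). HMACT MA 2 was the highest array, at 8.49, and the groups overlapped in both lines. The mean difference was 0.05 log2 units (95% interval -0.23 to 0.33), and without HMACT MA 2 it was -0.021. For Sgk1 the same difference was 0.46 in HMACT (SE 0.147) and 0.01 in LMACT (SE 0.154), and without LMACT MA 5 it was 0.17 in LMACT. The mean for Sgk1 was 0.23, and 0.11 in pools under 100 days. In HMACT 4 of 6 MA arrays had Sgk1 above every saline array of the line. In LMACT 3 of 5 did, and LMACT MA 5 lay below every saline array.

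All 6 genes thus had a positive mean difference between MA and saline in each line, with Sgk1 and Fkbp5 close to 0 in LMACT, where Sgk1 was negative with quantile normalization and with median centring. The 6 differences had a median of 0.65 in HMACT and 1.04 in LMACT. Over the 5308 genes above the floor on 12 arrays, 44.8% were positive in HMACT and 53.3% in LMACT, with medians of -0.01 and 0.01. In neither line did a gene of the 6 have MA and saline groups without overlap, which 0.109% of all genes had in HMACT and 0.667% in LMACT. Both within-line differences use their own saline arrays. Without the 4 arrays that stand apart the mean differences were 1.25 for Cebpd, 0.86 for Cdkn1a, 0.72 for Txnip, 0.60 for Ddit4, 0.21 for Sgk1 and 0.04 for Fkbp5.

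**Figure D2:**
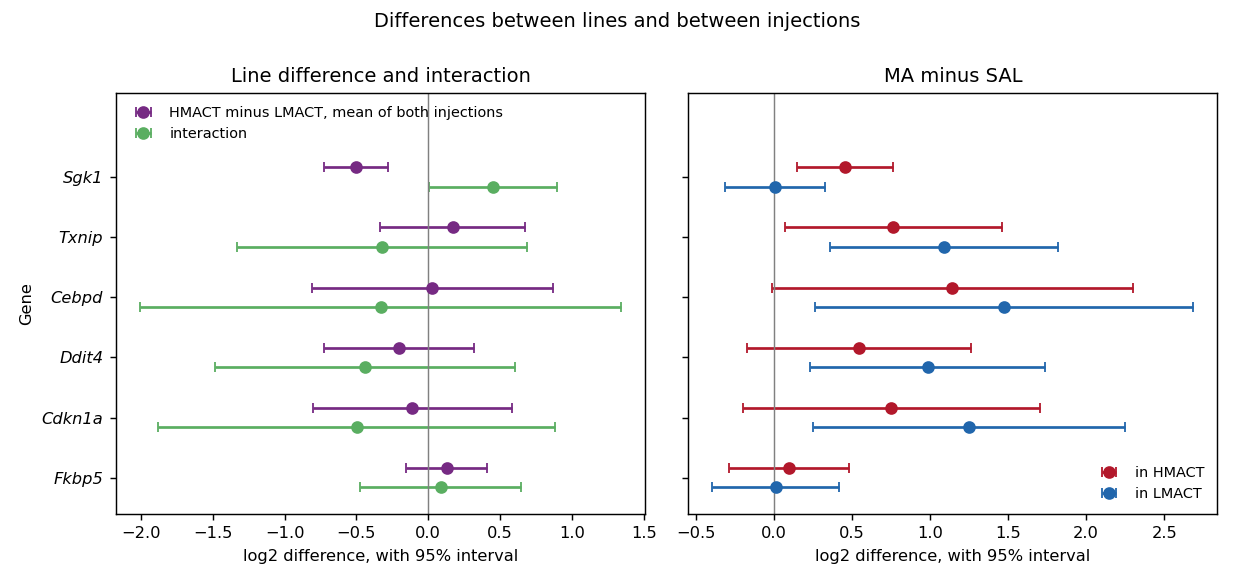
Log2 differences of the 6 genes with 95% intervals of the fit to 23 arrays, for HMACT minus LMACT as a mean of both injections and the interaction (left), and for MA minus SAL in HMACT and in LMACT (right). The Sgk1 line difference lies at -0.50 with an interval below 0, and in the right panel, which is a description, Cebpd reaches 1.14 in HMACT and 1.47 in LMACT while Fkbp5 stays near 0.

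Pools of the same line and number had similar mean ages, so they were also set against each other one by one. In HMACT the pools numbered 1 to 3 were 141.5 to 154 days old and those numbered 4 to 6 were 77.25 to 88 days old. The Ddit4 difference averaged 1.18 in the older pools (0.91 to 1.51) and -0.087 in the younger ones (-0.58 to 0.22). For Txnip it averaged 1.38 in the older pools (1.26 to 1.59) and 0.14 in the younger ones (-0.15 to 0.61). The averages in the older pools were 1.95 for Cebpd, 1.48 for Cdkn1a, 0.65 for Sgk1 and 0.33 for Fkbp5, against 0.34 for Cebpd, 0.020 for Cdkn1a, 0.26 for Sgk1 and -0.14 for Fkbp5 in the younger pools.

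For 4 of the 6 genes, Sgk1, Txnip, Cebpd and Ddit4, all 3 older HMACT differences exceeded all 3 younger ones, which 5.3% of all genes did, and 9.64% of all genes had the groups of 3 apart in either direction. This split was chosen after the values were seen and was not tested. For Cebpd the gap was narrow, with a lowest older difference of 1.264, from number 3, and a highest younger one of 1.255. The older pools were all hybridised to the lot of 15 arrays, as was number 6 of the younger ones, whose differences were 0.22 for Ddit4, 0.61 for Txnip and 1.26 for Cebpd. Beyond that pool, age, number and lot cannot be told apart in HMACT. Numbers 3 and 5 include arrays that stand apart, and without them the Ddit4 differences were 1.11 and 0.91 in the older pools, against 0.098 and 0.22 in the younger ones. For Txnip they were 1.26 and 1.31 in the older pools, against -0.15 and 0.61 in the younger ones. For Cebpd they were 2.59 and 1.99 in the older pools, against 0.62 and 1.26 in the younger ones.

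In LMACT the pools under 100 days, numbers 2 to 5, had differences of -0.092 to 2.04 for Ddit4, 0.69 to 2.44 for Txnip and -0.19 to 3.24 for Cebpd. The oldest LMACT pair, number 6, had -0.17 for Ddit4, -0.025 for Txnip and 1.27 for Cebpd. Among the young pools of both lines, the log2 interaction of line and injection was -1.32 for Ddit4, -1.18 for Txnip, -1.21 for Cebpd and -1.43 for Cdkn1a, with limma adjusted p-values of 0.592 for Ddit4, Txnip and Cdkn1a and 0.639 for Cebpd. Over all 39 alternatives the adjusted p of these 4 interactions ran from 0.561 to 1.

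**Figure D3:**
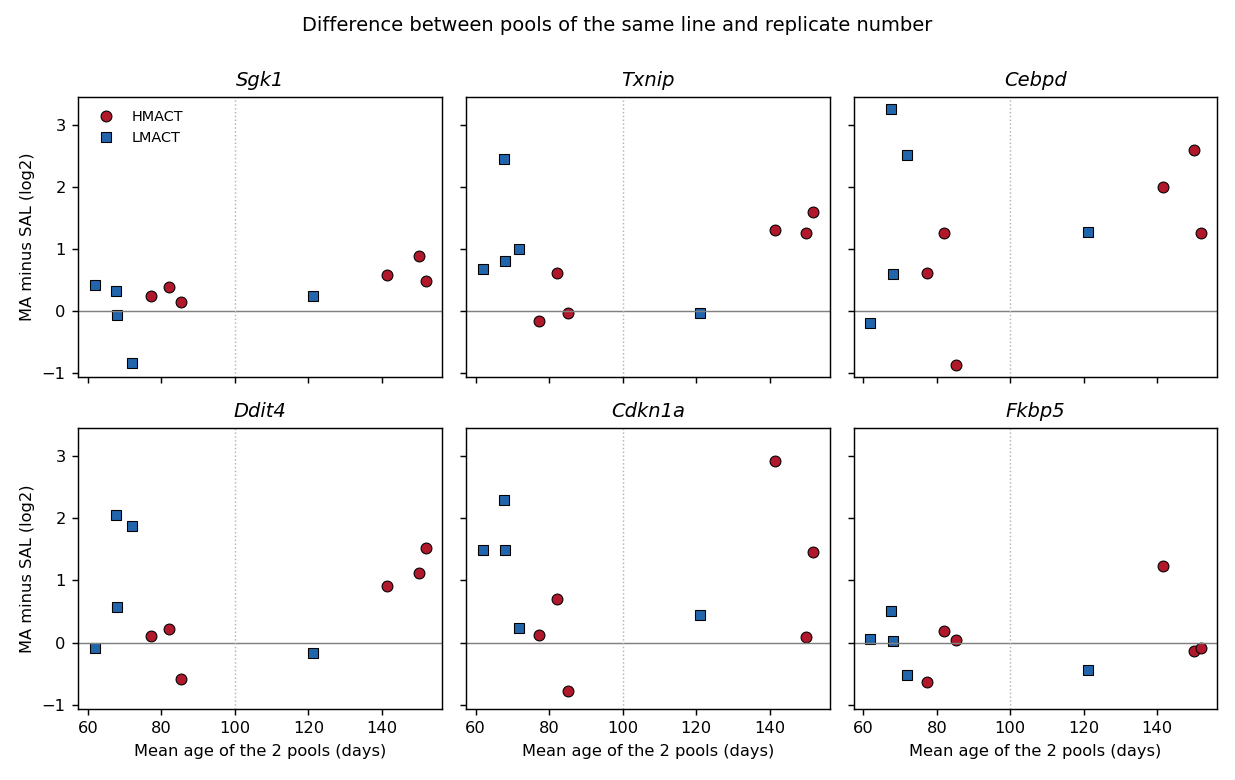
MA minus SAL difference in log2 units between pools of the same line and number (vertical) against the mean age of the 2 pools in days (horizontal), for 6 genes, with HMACT as circles and LMACT as squares and a dotted line at 100 days. The 3 HMACT circles right of the line lie above the 3 left of it for Sgk1, Txnip, Cebpd and Ddit4, only narrowly for Cebpd. Most LMACT squares lie left of the line with a wide spread.

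The mean line difference was tested for all 6 genes, and 0 passed in limma over 8251 genes, where 0.194% of all genes passed in either direction and 0.0606% with HMACT lower. Of the 6, Sgk1 alone had an unadjusted p under 0.05, as did 12.7% of all genes. The other mean line differences were 0.17 for Txnip (95% interval -0.34 to 0.67), 0.03 for Cebpd (-0.81 to 0.87), -0.20 for Ddit4 (-0.72 to 0.32), -0.11 for Cdkn1a (-0.80 to 0.58) and 0.13 for Fkbp5 (-0.15 to 0.41). These intervals span 0 and are wide for Cebpd and Cdkn1a. After saline and after MA, 0 of 6 passed as well, with 0% of all genes called in either comparison, and Sgk1 after saline had an unadjusted p of 8.2e-05, where 15.2% of all genes had one under 0.05.

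Whether the MA difference was the same in both lines was tested as an interaction, and 0 of the 6 genes and 0% of all genes passed in limma. For the 6 genes this test is not independent of their choice, made with the MA differences known. The interaction of Sgk1 was 0.45 (SE 0.213, unadjusted p = 0.0481, adjusted p = 0.860), that is, a higher MA difference in HMACT, and 2.62% of all genes had an unadjusted p under 0.05. For Txnip, Cebpd, Ddit4 and Cdkn1a it was -0.32 (SE 0.482), -0.33 (SE 0.801), -0.44 (SE 0.498) and -0.50 (SE 0.661), with adjusted p-values from 0.860 to 1, and for Fkbp5 0.09 (SE 0.268). Without LMACT MA 5, where Sgk1 was lowest, the Sgk1 interaction was 0.29. Without LMACT MA 4 the Cebpd interaction turned to 0.091.

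The genes varied together between pools of the same group. With group means removed, all 15 pairs of the 6 genes had a positive Pearson r over 23 arrays, from 0.067 to 0.748 with a median of 0.466. Over all pairs of the 5308 genes above the floor the median r was 0.0165, and 51.4% of pairs were positive. After adjustment over the 15 pairs, 2 passed: Txnip with Ddit4 (r = 0.748, rho = 0.692, adjusted permutation p = 0.00495) and Cebpd with Ddit4 (r = 0.708, rho = 0.675, adjusted permutation p = 0.00495). Without the 2 arrays farthest from the median of the first gene these were r = 0.657 and r = 0.632. By rank 3 pairs passed, these 2 and Txnip with Fkbp5 (rho = 0.701, adjusted permutation p = 0.0081). By Pearson r that pair narrowly missed (r = 0.579, adjusted permutation p = 0.0551). Among all gene pairs, 17.4% had an r of 0.5 or more and 7.13% had an r of 0.7 or more. The share of all gene pairs that would pass the permutation test was not computed.

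The values were repeated without the 4 arrays whose whole profile stands apart. On the remaining 19 arrays the 15 pairs were again positive, with a median of 0.363, against 0.0182 over all gene pairs. Of all gene pairs on these arrays, 9.91% reached an r of 0.5 and 2.44% reached 0.7. There 3 pairs passed: Txnip with Fkbp5 (r = 0.735, rho = 0.735, adjusted permutation p = 0.0213), Cebpd with Ddit4 (r = 0.687, rho = 0.537, adjusted permutation p = 0.0227) and Txnip with Ddit4 (r = 0.659, rho = 0.646, adjusted permutation p = 0.0415). By rank alone Cebpd with Ddit4 did not pass on these arrays (adjusted permutation p = 0.143). Without the 2 farthest arrays the 3 values of r were 0.696, 0.519 and 0.498. Within the lot of 15 arrays 0 pairs passed and the median r was 0.335, with 11 of 15 positive. With the profile axis as a covariate over 23 arrays the median r was 0.21.

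**Figure D4:**
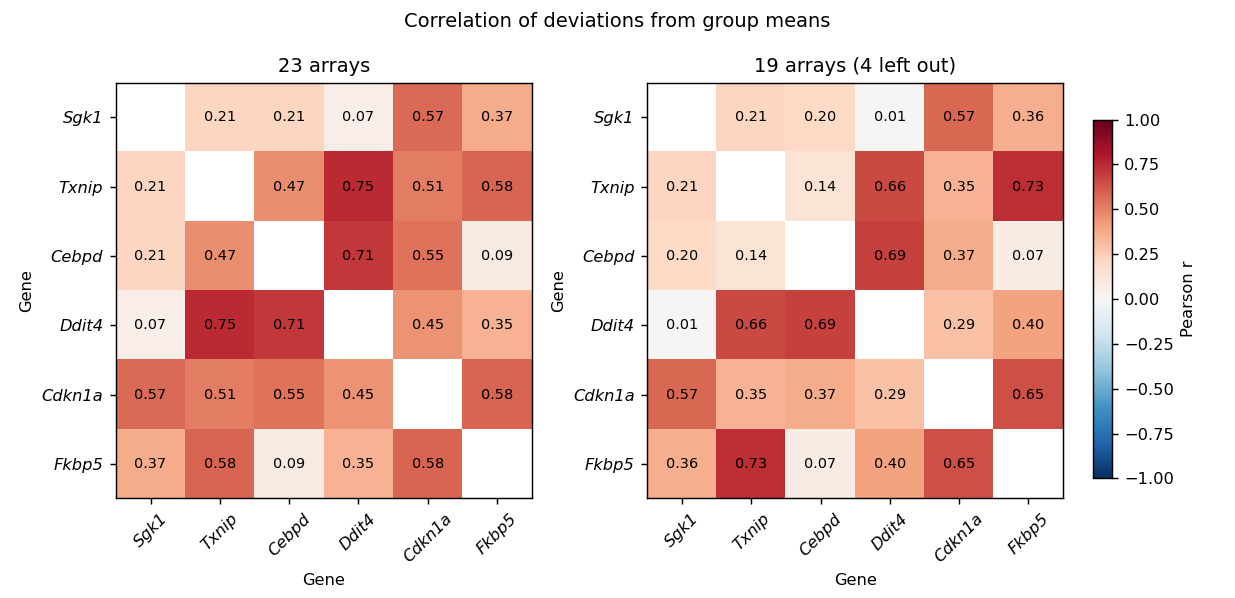
Pearson r between deviations from group means for each pair of the 6 genes, over 23 arrays (left) and over the 19 arrays left without those that stand apart (right), on a colour scale from -1 to 1. Ddit4 has its highest values with Txnip and Cebpd in both panels, and Sgk1 with Ddit4 is the lowest pair (0.067 and 0.015).

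The subsets by injection and by line were looked at after the other values were seen. Over the 11 MA arrays the median r was 0.623 and all 15 pairs were positive, and over the 12 SAL arrays the median was 0.186 with 11 positive. By Pearson r 2 pairs passed over MA arrays and 0 over SAL arrays, and by rank 6 and 0 passed. Cebpd with Ddit4 had r = 0.917 over MA arrays (rho = 0.809, adjusted permutation p = 0.0158, r = 0.905 without the 2 farthest arrays) and r = 0.406 over SAL arrays (rho = 0.308, adjusted permutation p = 0.451). Sgk1 with Fkbp5 had r = 0.790 (rho = 0.782, adjusted permutation p = 0.0158, 0.713 without the 2 farthest) over MA arrays, against r = -0.415 (rho = -0.434, adjusted permutation p = 0.451) over SAL arrays. Txnip with Ddit4 had r = 0.693 over MA arrays (rho = 0.655, adjusted permutation p = 0.0838) and r = 0.841 over SAL arrays (rho = 0.755, adjusted permutation p = 0.115). The difference between injections was not tested. Over the 12 HMACT arrays the median r was 0.599, and over the 11 LMACT arrays 0.368. Values over all gene pairs were computed for the 23 and the 19 arrays only, not for these subsets or the lot of 15 arrays. The MA subset holds HMACT MA 3 and LMACT MA 4, and the SAL subset HMACT SAL 3 and 5, which stand apart. The subset medians therefore cannot be called particular to these genes.

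**Figure D5:**
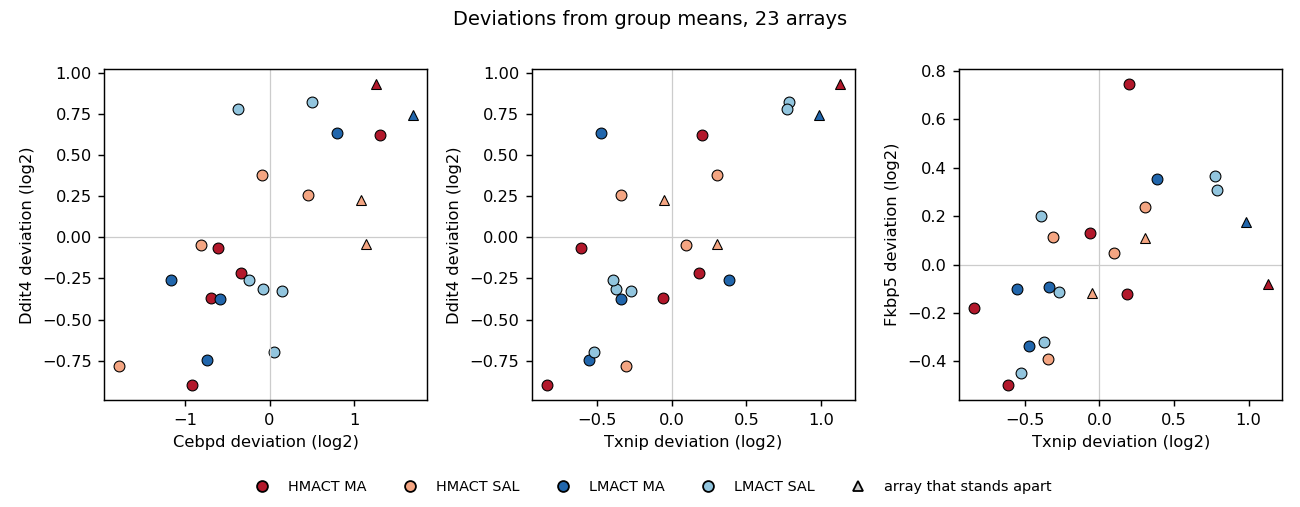
Deviations from the group mean in log2 units on 23 arrays, for Ddit4 against Cebpd (left), Ddit4 against Txnip (middle) and Fkbp5 against Txnip (right); colours are the 4 groups and triangles the arrays that stand apart. The points rise from lower left to upper right, with r of 0.708, 0.748 and 0.579, and HMACT MA 3 and LMACT MA 4 are among the highest in the left and middle panels.

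The genes with the most similar deviations over 23 arrays were other genes than the 6. For Txnip they were Syp, a synaptic vesicle gene (r = 0.913), Fbl, a nucleolar methyltransferase gene (0.900), and Klhl21 (0.890). For Ddit4 they were Kdelr1 (0.924), Pcbd2 (0.889) and Gar1 (0.880), and for Cebpd Zfp651 (0.944), 1190005I06Rik (0.941) and Mcrs1 (0.931). For Cdkn1a they were Ackr1 (0.877), Ampd3 (0.870) and Wdsub1 (0.859, with 1 value on 16 of 23 arrays), for Sgk1 Syn2 (0.815), Psat1 (0.811) and Ankrd46 (0.771), and for Fkbp5 Nsg2 (0.828), Slc6a8 (0.792) and Laptm4a (0.786). Over all 5308 genes the highest r of a gene had a median of 0.916, a 5th percentile of 0.759 and a 95th of 0.982, so these values are a description.

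The gene lists from here on were chosen with earlier results of these data known, so their MA counts are a description. Of 10 listed genes of the receptor and of hormone handling, 8 were on the array and 3 had values over 2.3, and 0 passed in any line or interaction test. These 3 were Hsd11b1, which regenerates active corticosterone, H6pd, which supplies its cofactor, and Crhr1, a corticotropin-releasing hormone receptor gene. They held 1 repeated value on 14, 15 and 11 of the 23 arrays, so their differences are not given as measurements. Of the receptor chaperones, 9 of 11 were measured and 0 passed in the line tests. Dnajb1, an HSP40 gene, had a mean line difference of 0.76 (SE 0.178, limma adjusted p = 0.0944), which passed in 5 of 37 alternatives (0.00992 to 1). Stip1, a co-chaperone gene, had 0.51 (SE 0.222, adjusted p = 0.362). The Dnajb1 MA difference was -0.98 in HMACT (SE 0.246) and -0.21 in LMACT (SE 0.258). In the mean of both lines 8 of 9 chaperone genes were negative after MA, with a median of -0.13, where 48.0% of all genes above the floor were positive. Hsp90aa1, a heat shock chaperone gene, had -0.44 (SE 0.559).

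Of 10 receptor coregulators, 4 were above the floor, and Med1, a mediator subunit, was lower in HMACT by the mean line test (-0.66, SE 0.123, limma adjusted p = 0.0233). It passed in 26 of 37 alternatives, with adjusted p from 0.00155 to 0.492, and did not pass with mean age as covariate (0.404), in the largest lot (0.214) or in pools under 100 days (0.492). Left out one at a time, HMACT MA 6, LMACT SAL 1 and 2 and LMACT MA 2 and 6 each ended the call, with adjusted p between 0.0502 and 0.0583. None of the others passed, with 0 higher and 1 lower in all. Nrip1, a corepressor gene, had -0.63 (SE 0.248, limma adjusted p = 0.330). After MA the largest difference was that of Crebbp, a histone acetyltransferase gene, at 0.33 (SE 0.219), and that of Nrip1 was -0.091.

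Of 30 other genes known to be induced by glucocorticoids, 28 were on the array and 22 above the floor, and 0 passed in the line or interaction tests. After MA 20 of 22 had a positive mean difference with a median of 0.11, against 48.0% of all genes above the floor and a median of -0.0038. Because the list was chosen with earlier results known, this count is no test of a response. Within lines 12 of 22 were positive in HMACT and 18 of 22 in LMACT. The largest was Dusp1, a MAP kinase phosphatase gene that neuronal activity also induces (0.80, SE 0.207), followed by the glucose transporter gene Slc2a1 (0.41, SE 0.465). Klf9, a receptor target in brain, had a mean line difference of -0.44 (SE 0.165, limma adjusted p = 0.326), and the metallothionein gene Mt1 0.68 (SE 0.277, adjusted p = 0.341).

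Kin and partners of the 6 genes, such as thioredoxins, C/EBP family members and mTOR pathway genes, were measured for 16 of 24 above the floor, and 0 passed in the line or interaction tests. Their median MA difference was 0.02, with 9 of 16 positive, where 48.0% of all genes above the floor were positive. Cebpb, the C/EBP beta gene, had the largest, 0.59 (SE 0.290), and Txn2, a mitochondrial thioredoxin gene, 0.17 (SE 0.203). In the mean line test Ccnd1, the cyclin D1 gene, with 1 value on 6 of 23 arrays, had 0.58 (SE 0.147, limma adjusted p = 0.135) and Nedd4, a ubiquitin ligase gene, -0.60 (SE 0.207, adjusted p = 0.287). Of the other p53 targets, 7 of 10 were measured and 0 passed in the line tests, with Btg2 at -0.24 (SE 0.0929, limma adjusted p = 0.326) and Mdm2, the p53 ubiquitin ligase gene, at -0.64 (SE 0.175, limma adjusted p = 0.175). Their median MA difference was 0.03, and Gadd45g, a stress-induced gene, had 0.56 (SE 0.238). Of 14 immediate early genes, 13 were measured and 12 were positive after MA with a median of 0.56. Among all genes above the floor 48.0% were positive, with a median of -0.0038. This list too was chosen with earlier results of these data known, so the count is a description. Atf3, a stress-induced transcription factor gene, had the largest difference, 0.95 (SE 0.185). Egr2, another transcription factor gene, had a mean line difference of -0.40 (SE 0.122, limma adjusted p = 0.225). Btg2, an antiproliferative gene in both of these lists, had a mean MA difference of 0.88 (SE 0.0929). Dusp1 is counted both here and among the other glucocorticoid-induced genes, so those counts share a gene.

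Markers of other cell types were set beside the arrays with the highest levels. The mean level of 7 endothelial and vascular markers above the floor, of 10 listed, was 4.71 to 5.62 in HMACT MA, 4.73 to 5.45 in HMACT SAL, 4.91 to 5.62 in LMACT MA and 4.71 to 4.97 in LMACT SAL. It was highest in its group on HMACT MA 3 and LMACT MA 4, on which Txnip and Ddit4 were highest as well. Both are among the 4 arrays whose whole profile stands apart. The mean level of 6 microglial markers of 8 listed was 6.41 to 7.95 in HMACT MA, 6.48 to 8.84 in HMACT SAL, 6.64 to 7.55 in LMACT MA and 6.54 to 6.99 in LMACT SAL, and was also highest in its group on those MA arrays. So was that of the striatal projection neuron markers, at 9.80 on HMACT MA 3 and 9.99 on LMACT MA 4, and that of the oligodendrocyte markers on LMACT MA 4, at 9.28. Cebpd and Cdkn1a were highest on HMACT MA 2 and LMACT MA 4. In HMACT SAL Txnip and Ddit4 were highest on array 4, and these marker means on other arrays. In LMACT SAL both genes and the endothelial mean were highest on array 3. The microglial, projection neuron and oligodendrocyte means were highest on other LMACT SAL arrays. Cx3cr1 and Aif1 of the microglial list, and the choroid plexus marker Ttr, were at the floor on every array. The part of these cells in the differences was not tested. The 6 astrocyte markers of 8 listed had a mean level of at most 8.32 in HMACT MA, 8.42 in HMACT SAL, 8.46 in LMACT MA and 8.33 in LMACT SAL.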

How the data were processed

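The authors deposited 1 value per probe set and array; the log2 scale was inferred from the range of the deposited values (2.23 to 16.4), since the labels do not state it. Per the submitters' processing notes R 2.7.1 was used, for a step they do not name; how probes were normalized and summarised is not given in the sources used here. Values under 2.3 were treated as the floor. Each gene took its probe set with the highest mean. All 23 arrays entered 1 limma 3.58.1 fit (R 4.3.3) of 4 group means, without covariates, with two-sided tests and Benjamini-Hochberg adjustment over 8251 genes. Correlations used deviations from group means and 100000 permutations within groups. The members and lists were chosen with earlier results of these data known. Named were the members, the 3 nearest genes of each, and per list the 2 smallest p-values of the mean line difference and the 2 largest MA differences. Alternatives covered scaling, filters, probe sets, weights, chip lot, age, replicate block and single arrays; the subsets of arrays by line or injection in the correlations were added after seeing the data. The fit was tested on simulated data. Promoter motifs were counted in RefSeq windows.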

Additional observations from a re-analysis of the deposited data

Results flagged for a closer look

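A sample lay far from the others of its group in 5 of 29 groups of member values. Chance gives about 1 in 20 for independent, normally spread values. That rate does not hold for 94881_at and 160548_at, which repeat 1 value and are among the 5, so no excess over chance is claimed. Sgk1 was lowest on LMACT MA 5 at 9.451, where the other 4 arrays had 10.1 to 10.3; this array also has the largest 3′ to 5′ control difference (3.22), and its part was not tested. Ddit4 was lowest in HMACT SAL on replicate 1 at 7.256. The dim Cdkn1a probe set 94881_at, which repeats 1 value on 8 of 23 arrays, was highest in LMACT MA on replicate 4 at 4.165 and lowest in HMACT SAL on replicate 6 at 2.939. The second Txnip probe set, 160548_at, left the floor only on HMACT MA 4, at 2.308.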

How the results depend on the processing

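The count of genes past the threshold in the mean line difference was 0, and 1 (Sgk1) with quantile normalization, without the dimmest 40% of genes, without genes at the floor on every array, with array weights and with the array axis as covariate, and 0 to 1 without single arrays. After MA it was 1 with array weights. After saline it was 1 with array weights and 0 to 1 without single arrays. The interaction count was 0 throughout. Fitting only the groups compared gives no value for the mean line difference or the interaction, which use all 4 groups. The median correlation of 0.466 was 0.21 with the array axis as covariate and 0.19 over SAL arrays only, and 0.375 to 0.526 without single arrays.

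The sign of small line differences depended on the setting. Mean age as covariate gave -0.041 for Txnip and -0.15 for Cebpd. The array axis as covariate gave -0.10 for Txnip and -0.63 for Cebpd, and interactions of 0.026 for Txnip, 0.51 for Cebpd and 0.0073 for Cdkn1a. Pools under 100 days gave a Cebpd line difference of -0.42 and a Fkbp5 interaction of -0.25. Without the 4 arrays that stand apart Cebpd had -0.16 and an interaction of 0.39. The largest lot gave a Cdkn1a line difference of 0.27 and interactions of 0.41 for Txnip, 0.60 for Cebpd, 0.11 for Ddit4 and 0.47 for Cdkn1a. The mean of all probe sets gave 0.013 for Cdkn1a, and array weights -0.014 for Fkbp5. Without single arrays the line difference ran from -0.12 to 0.24 for Cebpd and from -0.33 to 0.033 for Cdkn1a, and the interaction from -0.69 to 0.091 for Cebpd and from -0.064 to 0.18 for Fkbp5. The causes were not tested. The mean MA differences of Sgk1, Txnip, Cebpd, Ddit4 and Cdkn1a were positive under all 39 alternatives, but smaller under some: 0.11 for Sgk1 in pools under 100 days, 0.47 for Txnip with the mean of all probe sets, and 0.69 for Cebpd and 0.37 for Ddit4 with array weights. In HMACT array weights gave 0.027 for Ddit4 and 0.30 for Cdkn1a, and that of Ddit4 was -0.087 in pools under 100 days. That of Fkbp5 was negative under 2 of 39 alternatives. In LMACT the differences of Sgk1 and Fkbp5 were each negative under 11 of 40, down to -0.074 for Sgk1 and -0.12 for Fkbp5.

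Same-numbered pools had correlations of deviations from -0.62 to 0.88 in HMACT and -0.14 to 0.40 in LMACT, so the numbers were not shown to pair the pools. A replicate block as a fixed effect cannot give line differences; as a random replicate block the Sgk1 line difference was -0.50 (limma adjusted p = 0.196), and the block changed no call of the 6 genes. It ended the line call of Med1 (limma adjusted p = 0.0593). Signal over the floor limits what can be measured: Tsc22d3 and Nr3c1 gave no values.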
